A study of Mus musculus with 8 samples.

Results

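The PYHIN family of the mouse lies in a single cluster on chromosome 1, and 10 of its genes were followed here in bone marrow-derived macrophages (BMDMs). The 10 genes, Aim2, Ifi203, Ifi204, Ifi205, Ifi207, Ifi208, Ifi209, Ifi211, Ifi213 and Mndal, were named by a rule that used their own difference between the genotypes, and they are 10 of the 23761 genes in the deposited table. BMDMs are macrophages grown from marrow cells, here for 6 days in medium conditioned by L929 fibroblasts, and the libraries are described as vehicle-treated. Total RNA from cells of 3-month-old mice on a C57BL/6J background was sequenced, with 4 libraries of LysM Cre/Cre cells (LysM0 to LysM3) and 4 of LysM Cre/Cre KLF2 flox/flox cells (K2KO0 to K2KO3). Cre recombinase therefore sat at the lysozyme M gene Lyz2 in both genotypes, where it is made in macrophages and neutrophils, and the genotypes differed in the floxed Klf2 alleles. The measurement was FPKM, the fragments of a gene scaled to the length of its transcript and to the size of the library. It allows levels of different genes to be set side by side as far as their fragments can be told apart. Columns of the table name a genotype and no mouse, so the spread between libraries was the only error available to any test.

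PYHIN proteins pair a pyrin domain, which binds other pyrin domains, with one or more HIN domains, which bind DNA, although some members lack one of these parts. AIM2 is the best known of them: on meeting double-stranded DNA in the cytosol it assembles the adaptor ASC and caspase-1 into an inflammasome that matures interleukin-1β and cuts gasdermin D. Most genes of the cluster are induced by interferons, and the cluster has expanded by duplication in the mouse, so that several members share long stretches of nearly the same sequence.

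Klf2, the floxed gene (chr8:72319033-72321656, plus strand, GRCm38), was first examined in every library. It was listed at 44.1, 52.9, 64.7 and 72.8 FPKM in LysM0 to LysM3 and at 45.5, 41.6, 59.2 and 59.3 FPKM in K2KO0 to K2KO3. The groups overlapped, with means of 58.7 ± 12.7 and 51.4 ± 9.22 FPKM (SD, n = 4 each), and the log2 difference of -0.18 (SE 0.17) did not pass the test (limma, Benjamini-Hochberg adjusted p = 0.460). FPKM is a value over the whole gene, and the floxed exons are not given in the sources used here, so the level of Klf2 does not check the labels. Directions below are those of the libraries labelled K2KO against those labelled LysM.

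Across the table, 2014 of 10920 tested genes (18.4%) passed the threshold of an adjusted p under 0.05 with an absolute log2 difference over 0.26, of which 9.84% of the tested genes were higher and 8.61% lower in K2KO. The groups did not overlap for 23.1% of tested genes, K2KO lying above LysM for 12.9% and below it for 10.2%. Of the 10 PYHIN genes, 9 passed the filter of a mean of at least 1 FPKM. Ifi208 was the member that also passed the threshold, and the groups overlapped for the other 8 tested members. Since the members were chosen on this contrast, these counts and the values that follow are a description without a test.

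Ifi208, listed in the table under its older name Pydc3 (pyrin domain containing), was the member with a difference. Its locus is chr1:173673675-173698395 on the plus strand. It was listed at 1.70, 3.45, 5.005 and 5.69 FPKM in LysM0 to LysM3, at 0.0114 FPKM in K2KO0, and at 0 in K2KO1, K2KO2 and K2KO3. Every LysM library stood above every K2KO library. The fitted log2(FPKM + 0.1) difference was -5.17 (SE 0.41), a value set by the pseudocount, since it was -2.22 with a pseudocount of 1 and -8.22 with one of 0.01. Gapdh, which macrophages make in quantity, was itself listed at 0 to 0.500 FPKM in the 8 libraries while Actb ranged from 1962 to 2949 FPKM, and so a listing at 0 was not read as absence. These 2 reference genes were picked with their values in view. Actb itself passed the threshold, with a log2 difference of -0.37 (SE 0.09, limma adjusted p = 0.0239). Its groups were apart, at 2625 to 2949 FPKM in LysM and 1962 to 2449 FPKM in K2KO libraries.

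The size of the smallest FPKM step gives a rough measure of the fragments behind a value. By this measure Ifi208 rested on about 106, 210, 332 and 438 fragments in LysM0 to LysM3 and on about 0.874 fragments, close to a single one, in K2KO0. Relative depth ran from 0.850 to 1.30 of that of LysM0 and showed no detectable difference between the genotypes (permutation test, exact and two-sided, over 70 splits, p = 0.914). In the whole table Ifi208 was the 1 gene at 1 FPKM or more in every LysM library and below 0.1 FPKM in every K2KO library. The reverse pattern held for 2 genes, Gm10709 and Gm6344.

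Ifi213, listed as Pydc4, is the closest relative of Ifi208. It lies on the opposite strand at chr1:173566283-173599274, and the transcripts of the pair are 96.4% identical over 2749 aligned bases. Ifi213 was listed at 6.00, 12.6, 13.0 and 13.1 FPKM in LysM0 to LysM3 and at 12.4, 5.97, 11.6 and 11.1 FPKM in K2KO0 to K2KO3. One library of each genotype, LysM0 and K2KO1, was low and the other 6 lay close together. The means were 11.2 ± 3.47 and 10.3 ± 2.90 FPKM (SD, n = 4), a log2 difference of -0.11 (SE 0.30).

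The likeness of the pair reaches into the promoters. The 250 bases before the RefSeq start of each gene (GRCm38.p6) are shown because the pair was listed at different levels in both genotypes while these bases hardly differ. Capitals mark the core of the interferon-stimulated response element (ISRE), searched as GAAA, any 2 bases and GAAA again, to which interferon-activated transcription factors bind. The windows are chr1:173673415-173673664 on the plus strand for Ifi208 and chr1:173599273-173599522 on the minus strand for Ifi213.
Ifi208: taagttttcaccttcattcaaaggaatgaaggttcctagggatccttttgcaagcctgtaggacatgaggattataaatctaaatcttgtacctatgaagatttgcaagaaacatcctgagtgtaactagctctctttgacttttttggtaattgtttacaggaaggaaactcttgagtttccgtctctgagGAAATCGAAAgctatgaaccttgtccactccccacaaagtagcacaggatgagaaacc
Ifi213: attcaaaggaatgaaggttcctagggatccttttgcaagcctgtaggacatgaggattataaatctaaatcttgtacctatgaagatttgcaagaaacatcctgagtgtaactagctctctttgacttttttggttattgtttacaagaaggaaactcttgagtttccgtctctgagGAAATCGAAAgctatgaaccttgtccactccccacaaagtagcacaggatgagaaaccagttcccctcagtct
Over the 235 bases that the windows share, shifted by 15 bases, 2 bases differed, an identity of 99.1%. The core begins 58 bases before the start of Ifi208 and 73 bases before that of Ifi213.

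Reads that fit both genes can be split between them by the quantification, so the sum of the pair was also examined. It came to 7.70, 16.1, 18.1 and 18.8 FPKM in LysM0 to LysM3 and to 12.4, 5.97, 11.6 and 11.1 FPKM in K2KO0 to K2KO3. The groups overlapped through LysM0, the lowest LysM library. The means were 15.2 ± 5.10 and 10.3 ± 2.90 FPKM (SD, n = 4), and the log2 ratio of the means was -0.56. It ranged from -0.78 to -0.38 as each library was left out in turn. With Ifi206, the next relative of the pair, the log2 ratio of the 3-gene sum was -0.34. Of the 50-base words in Ifi208 transcripts, 79.2% occur in no other annotated gene and 18.1% also occur in Ifi213. For 100-base words the share found in no other gene was 94.1%. The words were pooled over 3 annotated Ifi208 transcripts, and any differing base sets a word apart. Most of these words are therefore not matched exactly in Ifi213. How the authors' programs divided fragments between the pair was not tested.

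**Figure D1:**
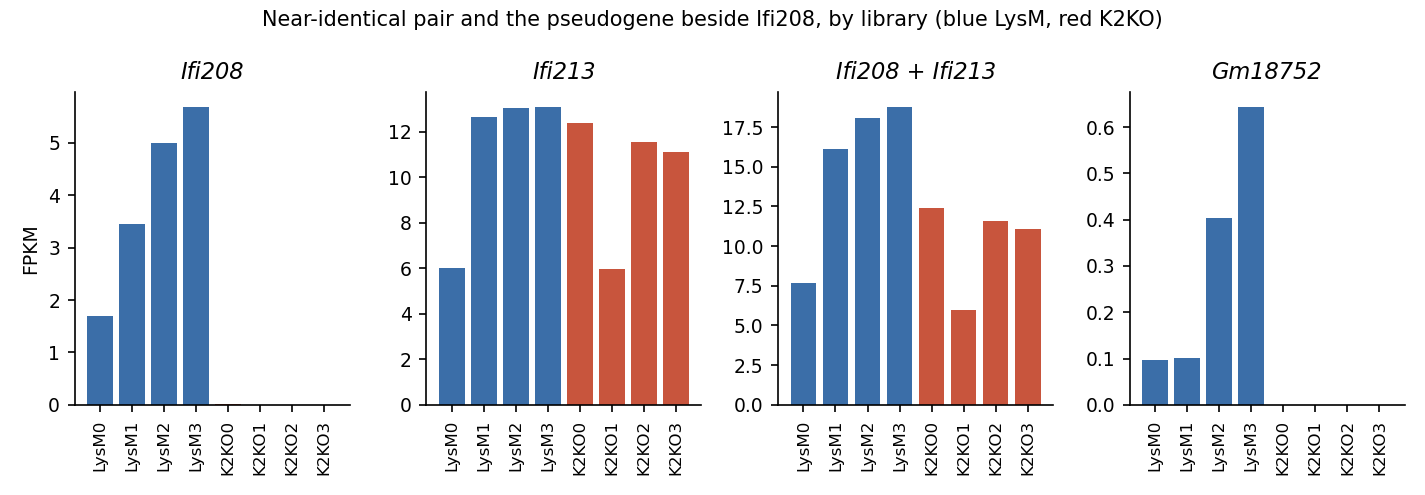
FPKM of Ifi208, Ifi213, their sum and the pseudogene Gm18752 in each of the 8 libraries (bars, linear axes from 0 that differ between panels; blue LysM, red K2KO). Ifi208 and Gm18752 stand at or near 0 in the 4 K2KO libraries, while Ifi213 is low in LysM0 and K2KO1 and overlaps between the genotypes.

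A further transcribed element lies beside Ifi208. Gm18752, a pseudogene at chr1:173701385-173706407 on the same strand, just downstream of Ifi208, is 97.9% identical to Ifi206 over 608 bases. It was picked with its values in view. It was listed at 0.0974, 0.102, 0.403 and 0.644 FPKM in LysM0 to LysM3 and at 0 in all 4 K2KO libraries. These levels lie under the filter of 1 FPKM, and Gm18752 was not tested.

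Aim2, the DNA sensor of the inflammasome, lies at the proximal end of the cluster (chr1:173350879-173466040, plus strand). It was listed at 10.8, 11.9, 13.6 and 13.2 FPKM in LysM0 to LysM3 and at 13.0, 12.8, 14.9 and 12.3 FPKM in K2KO0 to K2KO3. The libraries spanned a narrow range and the groups overlapped. The means were 12.4 ± 1.30 and 13.2 ± 1.14 FPKM, a log2 difference of 0.10 (SE 0.09). Of its 50-base words 99.4% are found in no other gene, the highest share among the members.

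Ifi204, which encodes the p204 protein that senses DNA in macrophages and signals through STING, had the highest mean of the members in LysM cells, although Ifi207 stood above it in LysM0. It lies at chr1:173747293-173766943 on the minus strand. Its levels were 69.4, 101.7, 108.0 and 112.1 FPKM in LysM0 to LysM3 and 96.9, 64.1, 102.1 and 95.4 FPKM in K2KO0 to K2KO3. LysM0 and K2KO1 were again the low libraries, and the groups overlapped. The log2 difference was -0.12 (SE 0.18).

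Ifi207, listed as AI607873 (chr1:173723427-173741747, minus strand), followed at 71.0, 86.5, 91.2 and 88.0 FPKM in LysM cells and 83.3, 76.6, 91.0 and 79.2 FPKM in K2KO cells. It varied least of the abundant members within a genotype, and its log2 difference was -0.03 (SE 0.09). Ifi209, listed as Pyhin1 (chr1:173630917-173647928, plus strand), was listed at 16.1, 27.0, 35.0 and 32.7 FPKM in LysM cells and at 27.7, 16.0, 28.1 and 23.2 FPKM in K2KO cells. The ranges overlapped, with a log2 difference of -0.20 (SE 0.26).

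Mndal overlaps both Ifi211 and Ifi203 on the minus strand (chr1:173849126-173942491, chr1:173896345-173913046 and chr1:173920407-173942672), and the table gives all 3 a single shared locus. Their values are therefore uncertain as separate levels. Mndal, named for its likeness to the human nuclear protein MNDA, was listed at 30.6, 37.6, 48.4 and 49.5 FPKM in LysM cells and at 46.2, 28.6, 47.0 and 39.6 FPKM in K2KO cells. Ifi211, listed as Mnda, was listed at 13.9, 19.0, 22.7 and 23.9 FPKM in LysM cells and at 24.0, 12.7, 23.3 and 22.0 FPKM in K2KO cells. Ifi203 was listed at 12.7, 18.4, 23.8 and 22.0 FPKM in LysM cells and at 23.6, 14.9, 23.1 and 19.0 FPKM in K2KO cells. In each of the 3 genes LysM0 and K2KO1 were the lowest libraries of their genotypes. Their log2 differences were -0.04 (SE 0.19), 0.03 (SE 0.23) and 0.08 (SE 0.21) for Mndal, Ifi211 and Ifi203. Summed over the shared locus, the means were 80.6 ± 18.3 FPKM in LysM and 81.0 ± 17.6 FPKM in K2KO cells (SD, n = 4).

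Ifi205 (chr1:174011998-174031810, minus strand), at the distal end, was the scarcest member. It was listed at 0.380, 0.208, 0.547 and 0.733 FPKM in LysM cells and at 0.720, 0.356, 0.528 and 0.506 FPKM in K2KO cells, under the filter for testing. Its groups overlapped.

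**Figure D2:**
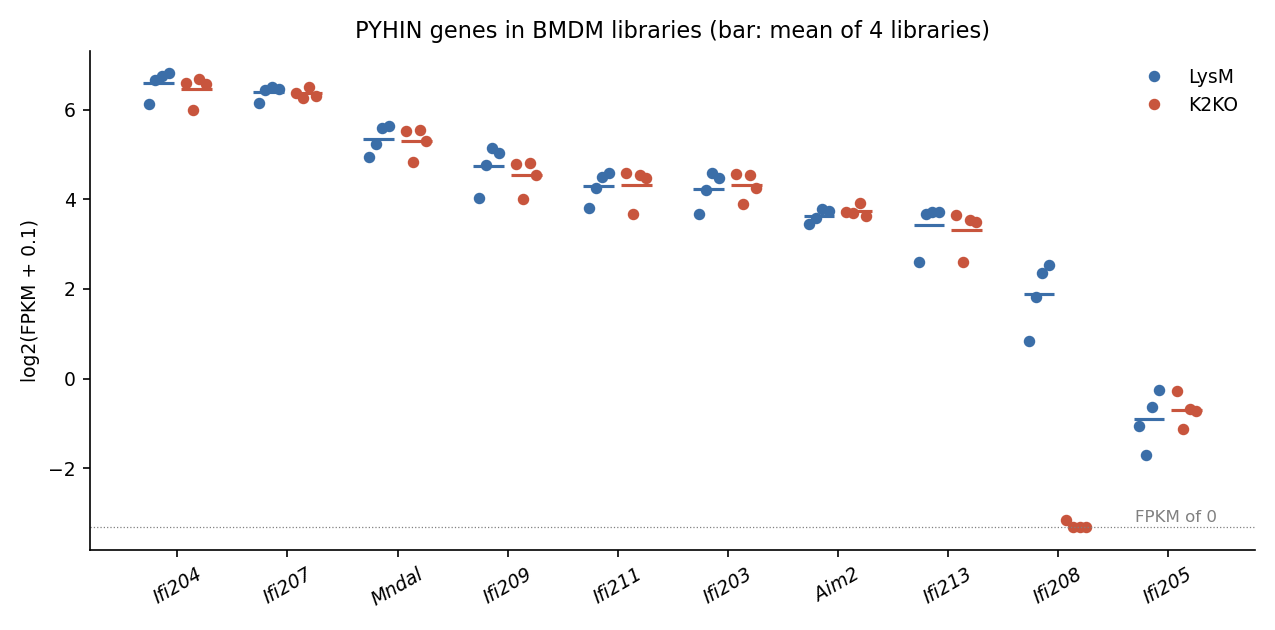
Levels of the 10 PYHIN genes on a log2(FPKM + 0.1) axis, ordered by mean LysM level, with 1 point for each library (blue LysM, red K2KO) and short lines for the means of 4 libraries (none is drawn for Ifi208 in K2KO). Ifi208 is the member whose K2KO points drop to the line of 0 FPKM, and for the other 9 the colours overlap.

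In LysM cells the order of the members by mean level was Ifi204, Ifi207, Mndal, Ifi209, Ifi211, Ifi203, Aim2, Ifi213, Ifi208 and Ifi205. Among neighbours in this order, the ranges over the 4 libraries were apart between Ifi207 and Mndal, between Ifi213 and Ifi208, and between Ifi208 and Ifi205. The ranges of the other neighbours overlapped. Within a library, however, Mndal stood above Ifi209, Ifi209 above Ifi211 and Ifi203 above Aim2 in 4 of 4 LysM libraries, and the order of the remaining neighbours held in 3 of 4. Ifi204 made up 30.7% and 29.7% of the summed family level in LysM and K2KO cells, and Ifi207 made up 26.8% and 27.8%. Ifi208 made up 1.19% of the sum in LysM cells. Shared sequence limits this order and these shares. Among the members, the share of 50-base words found in no other gene ran from 27.2% in Ifi211 to 99.4% in Aim2.

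The sum of all 10 members was 233, 318, 361 and 361 FPKM in LysM0 to LysM3 and 328, 232, 342 and 302 FPKM in K2KO0 to K2KO3. The means of 318 ± 60.6 and 301 ± 48.8 FPKM (SD, n = 4) overlapped, with a log2 ratio of -0.08, or -0.06 without Ifi208. The 5 members linked by near-identical stretches, Ifi203, Ifi204, Ifi205, Ifi211 and Mndal, summed to 179 ± 37.2 and 171 ± 34.7 FPKM, a log2 ratio of -0.06. These links were strong: Ifi205 and Ifi211 transcripts are 97.4% identical over 1101 bases, Ifi204 and Ifi211 are 96.9% identical over 1363 bases, and 27.2% of the 50-base words of Ifi211 are found in no other gene.

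**Figure D3:**
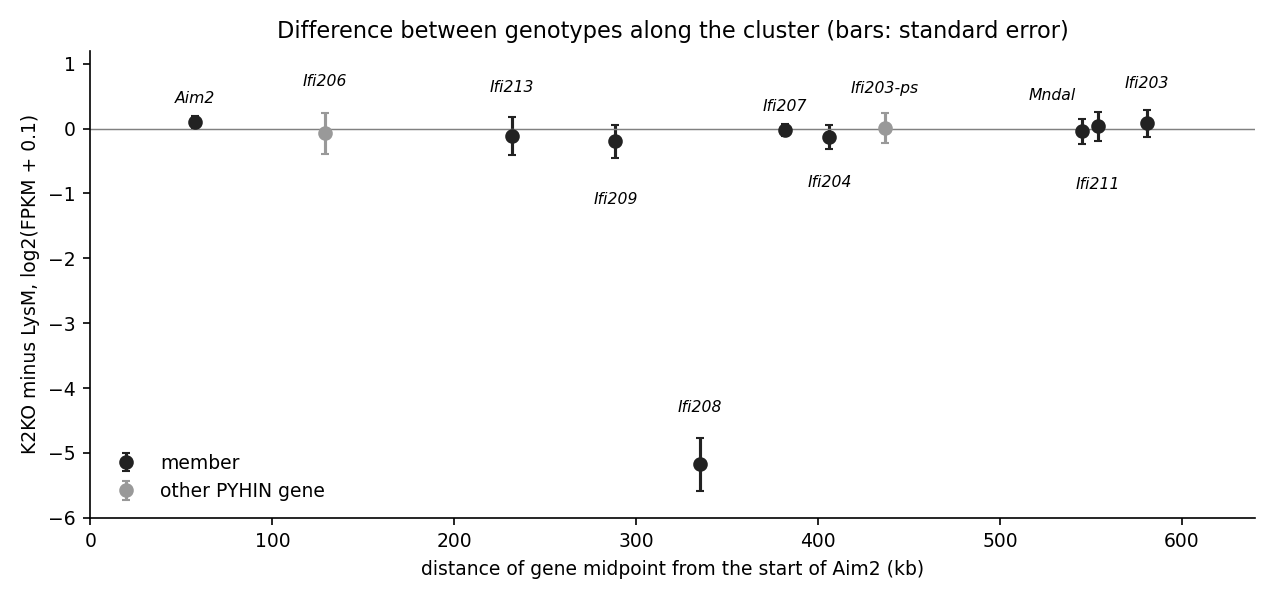
Fitted difference between K2KO and LysM on the log2(FPKM + 0.1) scale for the tested PYHIN genes, placed by the distance of the gene midpoint from the start of Aim2 in kb (bars, standard error; black, members; grey, other PYHIN genes). Ifi208 lies at -5.17, with Ifi209 and Ifi207 as the nearest members on either side at -0.20 and -0.03.

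Other PYHIN genes outside the 10 were also listed. Ifi206, listed as Gm4955, was at 5.88, 10.4, 12.5 and 12.5 FPKM in LysM0 to LysM3 and at 13.0, 5.11, 10.7 and 10.9 FPKM in K2KO0 to K2KO3. The pseudogene Ifi203-ps ranged from 1.07 to 1.85 FPKM in LysM and from 0.955 to 1.75 FPKM in K2KO cells. Both had overlapping groups, with log2 differences of -0.08 (SE 0.32) and 0.01 (SE 0.23). Ifi214 did not exceed 0.132 FPKM in any library, and Ifi202b was listed at 0 in all 8.

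The element seen in the promoters of Ifi208 and Ifi213 recurred in the family. RefSeq promoter windows (250 bases before to 50 after a start) were matched for 9 of the 10 members, Ifi204 being unmatched, and 7 of the 9 held the ISRE core on either strand. Of all 32851 windows of this length 3.44% held it. The members without it were Ifi209 and Aim2. The other members with the element are shown with 10 bases on each side, on the strand of the gene, capitals marking the element.
Ifi203: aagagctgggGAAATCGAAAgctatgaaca
Ifi205: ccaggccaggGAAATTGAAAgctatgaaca
Ifi207: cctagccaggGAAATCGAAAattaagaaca
Ifi211: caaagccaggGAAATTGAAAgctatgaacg
Mndal: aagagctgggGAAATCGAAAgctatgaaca
On the strand of the gene the element read GAAATCGAAA in Ifi203, Ifi207, Ifi208, Ifi213 and Mndal and GAAATTGAAA in Ifi205 and Ifi211. Ifi205 and Mndal each held a further match on the opposite strand, not shown. Of the other motifs searched on both strands, TTCNNNGAA, a pattern like the gamma-activated site, was in none of the members' windows and in 8.30% of all windows. CACCC, the box that Krüppel-like factors bind, was in windows of 6 of the 9 members and in 57.5% of all windows. Before the start alone, it was in windows of 4 of the 9 members and in 52.0% of all windows. The 9 members have 11 windows in all, so these shares are not on the same footing. These are matches of letters, and no occupancy was measured.

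Apart from Ifi208, the spread of the family lay mainly between libraries of the same genotype. LysM0 was the lowest of the 4 LysM libraries for 8 of the 8 other tested members, and K2KO1 was the lowest of the 4 K2KO libraries for 7 of 8, the exception being Aim2. In the median member LysM0 stood -0.48 and K2KO1 -0.46 on the log2 scale from the mean of its own genotype. A list of 69 tested interferon-stimulated genes outside the family was low in the same libraries, with 65 of 69 (94.2%) lowest in LysM0 and 65 of 69 lowest in K2KO1 of their genotypes. Among all tested genes 34.6% and 23.5% were lowest in these libraries. The medians of the interferon-stimulated genes there were -0.46 and -0.49. Neither library was labelled as different from the others, and what set them apart was not tested.

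**Figure D4:**
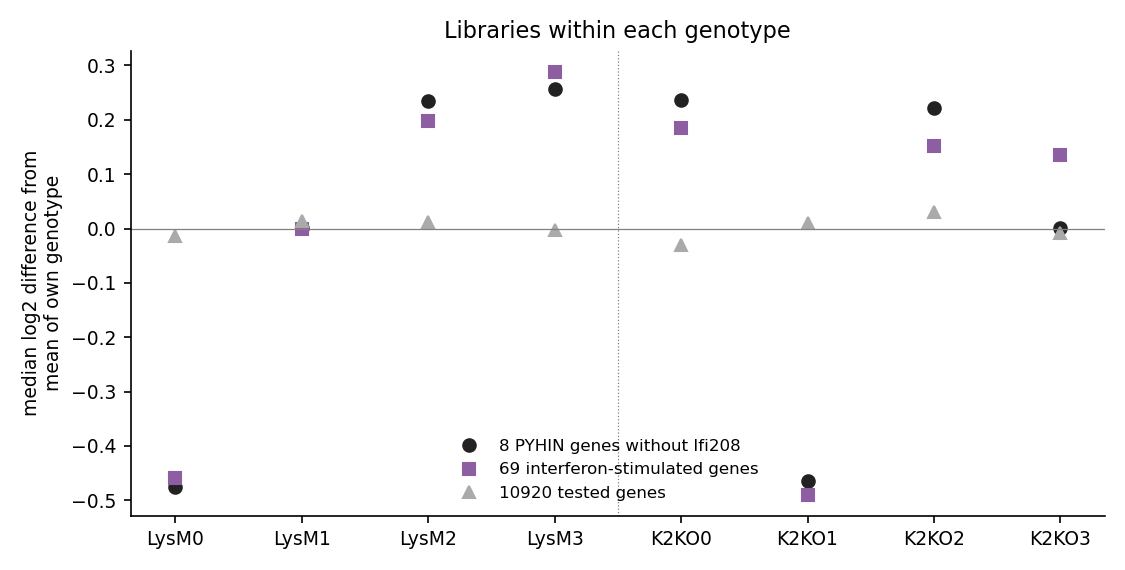
Median log2(FPKM + 0.1) difference of each library from the mean of its own genotype, for 8 PYHIN genes (circles), 69 interferon-stimulated genes (squares) and all 10920 tested genes (triangles). LysM0 and K2KO1 lie near -0.5 for both gene groups, and all tested genes stay near 0.

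Over the 8 libraries, after centring within each genotype, the genes outside the family most like the summed PYHIN level were Ifit1 (Pearson r = 0.998), Rsad2 (r = 0.993) and the pseudogene Gm3788 (r = 0.991). Ifit1, which binds viral RNA, was listed at 12.5, 23.5, 29.9 and 30.6 FPKM in LysM0 to LysM3 and at 25.3, 12.8, 26.7 and 22.7 FPKM in K2KO0 to K2KO3. Rsad2, the antiviral protein viperin, showed the same low libraries at 12.6 FPKM in LysM0 and 13.1 FPKM in K2KO1. The members themselves ran from r = 0.77 for Aim2 to r = 0.995 for Ifi209, each member being part of the sum. For Ifi208, listed at or near 0 in K2KO, the r of 0.78 rests on the LysM libraries. The median r was 0.94 over the interferon-stimulated genes, 67 of 69 being positive, and 0.03 over all tested genes. Each point is a library, within which all genes share depth and preparation, and no test was made.

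Leaving out LysM0 and K2KO1, a choice made after seeing the data, moved the differences of the tested members by less than the spread between libraries. The log2 difference was -5.51 for Ifi208, -0.26 for Ifi209, -0.15 for Ifi213 and -0.13 for Ifi204. It was 0.05 for Aim2, -0.02 for Mndal, -0.07 for Ifi207, 0.09 for Ifi211 and 0.03 for Ifi203, and the log2 ratio of the summed family was -0.10.

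The genes around the family in the interferon and DNA-sensing pathways were then counted, from lists chosen with earlier results known. Of the 69 tested interferon-stimulated genes 2 rose and 1 fell (4.35%), and their median log2 difference was -0.08, against 18.4% and 0.01 over all tested genes. Slfn5, a Schlafen family gene, rose from 4.61 to 12.3 FPKM (log2 difference 1.34, SE 0.22, limma adjusted p = 0.0109), and Dtx3l, a ubiquitin ligase partner of Parp9, rose from 1.21 to 2.53 FPKM (0.98, SE 0.24, adjusted p = 0.0260). Ifi27l2a, a mitochondrial interferon-induced gene, fell from 1599 to 891 FPKM (-0.81, SE 0.25, adjusted p = 0.0492), although its groups overlapped. Without LysM0 and K2KO1, 1 rose and 10 fell, 15.9% of the list, against 11.8% of all tested genes, of which 5.93% were higher and 5.83% lower. The count also moved with single libraries, to 8 without LysM0 and to 1 without LysM1, LysM3, K2KO0, K2KO1 or K2KO2. Over all tested genes the count of 2014 became 2332 without LysM0. It became 736, 337, 706, 726 and 496 without LysM1, LysM3, K2KO0, K2KO1 and K2KO2, in that order. The drops of the list to 1 thus came with fewer calls over the whole table. Without LysM2 or K2KO3 the list gave 2, with 1030 and 2837 calls over all tested genes. With each library left out in turn, Slfn5 passed 8 of 8 times, Dtx3l 3 of 8 and Ifi27l2a 1 of 8.

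Of the 20 tested interferon signalling genes, 1 rose and 2 fell, 15% against 18.4% over all tested genes, with a median of -0.06. The kinase Jak2 rose by 0.38 on the log2 scale (SE 0.09, limma adjusted p = 0.0241). The phosphatases Ptpn2 and Ptpn6, which restrain cytokine receptor signalling, fell by 0.33 (SE 0.09, adjusted p = 0.0336) and 0.30 (SE 0.08, adjusted p = 0.0311). The transcription factors Irf7 and Irf9 of the interferon response did not pass the test. Their log2 differences were -0.12 for Irf7 (SE 0.29, limma adjusted p = 0.778) and -0.05 for Irf9 (SE 0.11, adjusted p = 0.781). Without LysM0 and K2KO1 the list gave 0 rises and 2 falls, 10% against 11.8% of all tested genes. There 5 of 20 had an unadjusted p under 0.05 in limma, for which no share of all tested genes was taken. With each library left out in turn, Jak2 and Ptpn2 passed 2 of 8 times and Ptpn6 4 of 8.

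Of the 24 tested genes of DNA sensing and inflammasomes, 1 rose and 1 fell, 8.33% against 18.4% over all tested genes, with a median of 0.02. Nlrc4, the adaptor of the NAIP inflammasome, rose from 1.90 to 2.52 FPKM (log2 difference 0.38, SE 0.12, limma adjusted p = 0.0459), and Ikbke, a kinase close to TBK1, fell from 71.4 to 52.4 FPKM (-0.44, SE 0.08, adjusted p = 0.0121). Nlrc4 passed 1 of 8 times with a library left out, and Ikbke 8 of 8. Without LysM0 and K2KO1 this list gave 0 rises and 2 falls, 8.33% against 11.8% of all tested genes. In that setting 10 of 24 had an unadjusted p under 0.05 in limma. The share of all tested genes at that unadjusted threshold was not taken, so nothing is read from this count. Without LysM0 and K2KO1 Ikbke passed and Nlrc4 did not. The partners of AIM2 did not pass the test. Pycard, which encodes ASC, had a log2 difference of -0.21 (SE 0.11, adjusted p = 0.189). Casp1 had one of 0.14 (SE 0.08, adjusted p = 0.207). Gsdmd, the gasdermin that caspase-1 cuts, had one of -0.21 (SE 0.08, adjusted p = 0.0833). All 3 had overlapping groups. The DNA sensor Cgas and its partner Tmem173, which encodes STING, stood at 0.03 (SE 0.15, adjusted p = 0.906) and -0.09 (SE 0.07, adjusted p = 0.359).

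Beyond the PYHIN genes, 24 listed genes lay within 1 Mb of the cluster, and 7 of them passed the filter, all of them proximal to Aim2. Dusp23, 718 kb away, and Slamf8, 760 kb away, did not pass the test, with log2 differences of -0.08 (SE 0.09, limma adjusted p = 0.558) and 0.38 (SE 0.17, adjusted p = 0.128). Tagln2, Igsf9 and Slamf9, 843 to 872 kb away, fell by 0.28 (SE 0.08, adjusted p = 0.0407), 0.99 (SE 0.18, adjusted p = 0.0126) and 1.12 (SE 0.24, adjusted p = 0.0177). With each library left out in turn Igsf9 passed 8 of 8 times, Slamf9 5 of 8 and Tagln2 2 of 8. No neighbour rose past the threshold (1 at an unadjusted p under 0.05, for which no share of all tested genes was taken). The 3 falls were 42.9% of the 7 neighbours, against 18.4% over the table, and without LysM0 and K2KO1 the share was 28.6% against 11.8%. Within 5 Mb, 3 rose and 9 fell among 63 tested, 19.0% against 18.4% over the table.

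The macrophage markers fitted the label. All 10 had a mean of at least 1 FPKM, with summed levels of 4938 to 5239 FPKM in LysM and 4598 to 4825 FPKM in K2KO libraries, Cd68 being the most abundant. Every K2KO sum was below every LysM sum. The groups were also apart for Cd14, with a log2 difference of -0.32 that did not pass the test (SE 0.11, limma adjusted p = 0.0630). Lyz2, the site of Cre, fell by 0.49 on the log2 scale (SE 0.12, limma adjusted p = 0.0260), and Mertk rose by 0.36 (SE 0.09, adjusted p = 0.0285). Of the neutrophil markers 9 of 10 reached 1 FPKM, with sums of 192 to 323 FPKM in LysM and 185 to 317 FPKM in K2KO libraries, led by S100a9, and Camp fell by 1.14 (SE 0.24, adjusted p = 0.0178). The neutrophil sums overlapped between the genotypes. Mmp8 had a mean of 4.70 FPKM in LysM and 7.31 FPKM in K2KO cells. Its log2 difference of 0.65 did not pass the test (SE 0.22, limma adjusted p = 0.0626). Elane (0.47), S100a8 (0.27) and Mpo (0.17) also had positive log2 differences that did not pass. Those of Prtn3, S100a9, Ltf and Ngp lay between -0.07 and 0.02. Ly6g, under the filter, had means of 0.262 and 0.160 FPKM in LysM and K2KO cells. Of the dendritic cell markers 2 of 8 reached 1 FPKM, with sums of 3.01 to 7.02 FPKM in LysM and 4.06 to 6.74 FPKM in K2KO libraries, and their most abundant gene, Bst1, fell by 1.19 (SE 0.21, adjusted p = 0.0120). These sums overlapped. The other tested marker of the list, Ccr7, had a mean of 0.968 FPKM in LysM and 1.63 FPKM in K2KO cells (log2 difference 0.77, SE 0.42, adjusted p = 0.205). Siglech, under the filter, ranged from 0.0658 to 0.295 FPKM in LysM and from 0.339 to 0.712 FPKM in K2KO libraries. Flt3, Cd209a and Clec9a, also under the filter, had higher means in K2KO cells with overlapping groups, while Zbtb46 had a mean of 0.0816 FPKM in LysM and 0.0548 FPKM in K2KO cells and Xcr1 of 0.0261 and 0.0260 FPKM. Of the T and NK cell markers 1 of 7 reached a mean of 1 FPKM, with sums of 1.80 to 2.52 and 5.22 to 6.06 FPKM, led by Cd4, which rose from 1.92 to 5.15 FPKM (log2 difference 1.38, SE 0.12, adjusted p = 4.34e-04), and Gzma was at 0 in every library. The T and NK cell sums were thus apart, with Cd4 the 1 tested gene of that list. Of the B cell markers 1 of 6, Cd79b, reached 1 FPKM and did not pass the test (adjusted p = 0.146), with sums of 1.97 to 5.30 and 3.72 to 5.90 FPKM. No marker of fibroblasts, erythroid cells or mast cells and basophils reached a mean of 1 FPKM over the 8 libraries, and their sums in LysM and K2KO libraries were 0.163 to 1.31 and 0.556 to 3.25 FPKM, 0.122 to 1.31 and 0.721 to 1.88 FPKM, and 0.432 to 0.787 and 0.725 to 1.43 FPKM, led by Dcn, Hba-a1 and Gata2, with Hbb-bt at 0 in every library. Among them Kit had groups that were apart, at 0.101 to 0.177 FPKM in LysM and 0.267 to 0.394 FPKM in K2KO libraries. In such bulk samples fewer cells of a type and less RNA per cell cannot be told apart, and the part of other cells in the PYHIN levels was not tested.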

How the data were processed

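BMDM RNA of 4 LysM and 4 K2KO mice was studied, and the authors deposited one table of FPKM per gene and library. The paper's methods name TopHat2 and Cufflinks on mm10, the submitters' processing notes name STAR, Cufflinks and Cuffdiff, and no versions are given in the sources used here. The labels and the methods also name different RNA isolation kits. FPKM keep no read counts, so no counting error could be given and no count test was used.

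The table was matched by Ensembl identifier to GENCODE M21 (GRCm38), which named 23645 of 23761 genes. Differences were fitted on log2(FPKM + 0.1) for the 10920 genes with a mean of at least 1 FPKM, using limma 3.58.1 in R 4.3.3 (lmFit, then eBayes allowing a trend with intensity) with Benjamini-Hochberg adjustment. Sums are of FPKM. Near-identical members share at least 95% identity over at least 200 transcript bases (blastn 2.17.0). Protein sequences were not analysed here. The procedure was tested on simulated data for this comparison, with 10920 genes and a log2 change of 1 given to 200 of them. Of these 88.5% were recovered, and 11 of 188 calls were false. The simulated noise was independent between genes, without the shifts that many genes shared in LysM0 and K2KO1. The share of false calls in the data can therefore differ.

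The members and lists were chosen with earlier results of these data known. The text names Klf2, the members, the other PYHIN genes, from each pathway list the called genes (up to 4 in each direction) with Pycard, Casp1, Gsdmd, Tmem173, Cgas, Irf7 and Irf9, the 4 nearest tested neighbours and any called neighbour, the 3 genes most like the summed family, and cell type markers. Alternatives were another pseudocount, filter, scaling, variance model, threshold, a GC and length correction, a block on the column number, and each library left out. Other genes of the lists are given as counts, and one gene that this naming rule covers, not a PYHIN gene, is not reported here.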

Additional observations from a re-analysis of the deposited data

Results flagged for a closer look

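The library farthest from the rest of its group was compared with the range of that group for 45 groups of 4 libraries, of which chance would single out about 1 in 20, or 2.25. For Ifi213, LysM0 at 6.00 FPKM stood far below the other 3 LysM libraries. For Ifi208, K2KO0 at 0.0114 FPKM stood apart from 3 libraries listed at 0. Any value above 0 would stand apart from them, and this one equals about 0.874 fragments. For the pseudogene Ifi203-ps, K2KO1 at 0.955 FPKM stood far below the other 3 K2KO libraries.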

How the results depend on the processing

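The value of Ifi208, a description, moved beyond the spread between libraries with the pseudocount (-2.22 and -8.22 against -5.17) and not under the other alternatives run. Of the 9 tested members, 7 took the other sign under at least 1 of 20 alternatives, and Ifi209 and Ifi208 kept theirs. The sums moved by less than the spread between libraries, the log2 ratio ranging from -0.21 to 0.03 for all members, -0.78 to -0.38 for Ifi208 with Ifi213 and -0.20 to 0.07 for the group of 5 as each library was left out. Klf2 turned to 0.039 with the GC content and length correction, alone and with the replicate block, and ranged from -0.31 to -0.07 with a library left out. The count of 2014 genes became 483 with no filter, 746 by ordinary least squares, 1098 with the GC content and length correction, 868 with the block and that correction, 110 at an absolute log2 difference over 1, 1285 without LysM0 and K2KO1, and 337 (without LysM3) to 2837 (without K2KO3) with a library left out. The 3 interferon-stimulated genes became 0 with no filter (4 of 74 at an unadjusted p under 0.05 in limma), 1 by least squares, with the correction, with block and correction, and at the larger difference, 11 without LysM0 and K2KO1, and 1 to 8 with a library left out (8 without LysM0). The 3 interferon signalling genes became 0 with no filter, by least squares (6 of 21 and 6 of 20 at an unadjusted p under 0.05) and at the larger difference (7 of 20), 1 with quantile normalization, correction, block, and both, and 0 to 4 with a library left out. The 2 genes of DNA sensing and inflammasomes became 1 with a filter of 0.1, no filter, least squares, correction, block, and both, 0 at the larger difference (10 of 24 at an unadjusted p under 0.05), and 1 to 4 (4 without K2KO3). The 3 neighbours became 1 with no filter, least squares and the larger difference, 12 within 5 Mb, and 1 to 3. No share of all tested genes was taken at an unadjusted p under 0.05, so nothing is read from those counts. The causes were not tested. Columns with the same number did not deviate together across genotypes (r of -0.07, 0.02, 0.07 and -0.06). Whether such columns belong together is not given, so the block on this number rests on no known pairing. The block gave 2057 calls.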
